A study of Mus musculus with 18 samples.

Results

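The hypoxia-inducible genes are 10 genes picked by name from among 34244 named rows of a table of gene expression in mouse embryos. They are Adm, Vegfa, Slc2a1, Pdk1, Ndrg1, Bnip3, Egln3, Ankrd37, Ca9 and Pfkfb3. Of these symbols 9 had a row as written, and Ca9 was matched through its listed synonym to the mouse symbol Car9, so that all 10 genes were found and all 10 passed the filter on low values. RNA-seq was done on total RNA of 9 whole embryos of the FVB strain at E11.5, with 1 library per embryo and 3 embryos per genotype. Dnmt3b+/+ embryos carried the wild-type DNA methyltransferase gene Dnmt3b. Embryos labelled Dnmt3b-/-, here called null-labelled embryos, were homozygous for a null allele derived from a floxed allele. Dnmt3bCI/CI embryos were homozygous for a knock-in made with CRISPR/Cas9 that alters the catalytic site. It was designed so that the protein is made but is inactive as an enzyme, and the study did not exclude that some activity remains. No treatment was given, hypoxia was not applied and oxygen was not measured. The study processed live embryos only.

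Cells sense low oxygen through the hypoxia-inducible factors (HIFs). When oxygen is ample, prolyl hydroxylases of the Egln family mark the HIF alpha subunits Hif1a and Epas1 for destruction through Vhl. When oxygen falls, the alpha subunits accumulate, pair with Arnt and bind short DNA elements whose core reads ACGTG or GCGTG, which raises genes for glucose uptake, glycolysis, lactate export, vessel growth and mitochondrial turnover. The 10 genes are widely used readouts of this response, and several of them are also set by other signals, by growth and by the mix of cell types.

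To show the core element in its setting, the 250 bases before the RefSeq start sites of the members were searched on both strands for ACGTG and for GCGTG (GRCm38.p6). The promoter table matched 9 members, all but Ndrg1, with 12 windows, and 10 windows from all 9 genes held at least 1 core. Over all 32851 promoter windows in that table, 16.6% held ACGTG, 28.2% held GCGTG and 38.6% held either. The windows of Adm and Bnip3 are shown because these were the members that rose in the null-labelled embryos, and the window of Egln3 because it carries a core and its level overlapped between those embryos and Dnmt3b+/+. Letters run from 5′ to 3′ on the strand of the gene, capitals mark a core on either strand (CACGT and CACGC are ACGTG and GCGTG read on the other strand), and bases that GENCODE places inside the gene were left out. The Adm window is chr7:110627407-110627656 on the plus strand, that of Bnip3 is chr7:138909520-138909756 on the minus strand, and that of Egln3 is chr12:54203875-54204124 on the minus strand.
Adm: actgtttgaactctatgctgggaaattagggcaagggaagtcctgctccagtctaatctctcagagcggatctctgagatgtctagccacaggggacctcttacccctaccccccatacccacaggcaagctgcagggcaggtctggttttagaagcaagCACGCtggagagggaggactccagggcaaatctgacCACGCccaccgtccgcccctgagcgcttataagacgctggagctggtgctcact
Bnip3: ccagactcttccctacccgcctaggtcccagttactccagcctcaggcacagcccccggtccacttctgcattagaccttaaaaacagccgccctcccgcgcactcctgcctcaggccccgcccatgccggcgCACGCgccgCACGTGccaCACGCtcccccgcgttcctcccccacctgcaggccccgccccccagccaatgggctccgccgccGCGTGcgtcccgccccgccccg
Egln3: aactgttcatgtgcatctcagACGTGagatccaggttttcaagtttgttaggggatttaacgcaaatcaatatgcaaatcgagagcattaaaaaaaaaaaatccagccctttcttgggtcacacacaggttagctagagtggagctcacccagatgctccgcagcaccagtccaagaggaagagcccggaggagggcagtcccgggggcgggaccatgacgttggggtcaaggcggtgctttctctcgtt
The Adm window holds GCGTG in 2 places, 90 and 54 bases before the start site. Bnip3 holds 5 matches, 2 of ACGTG and 3 of GCGTG, and the ACGTG matches at 108 and 107 bases overlap in a palindrome. Egln3 holds ACGTG in 1 place, 229 bases before its start site. Other members that did not rise held matches as well, with 4 for Ankrd37, 2 for Slc2a1 and 1 for Car9. By window there were 3 and 1 for Pfkfb3, 2 and 0 for Vegfa and 1 and 0 for Pdk1. A match of these letters is a description of the sequence and not a measurement of binding.

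Values are FPKM, fragments scaled by exon length and by the size of the library, so levels of different genes can be compared per length. The reads behind each library, worked back from the FPKM values, ranged from 38451729 to 49808777. Differences are log2 fold changes of FPKM + 0.1, tested with limma across 19397 genes, and a gene is said to have risen or fallen at a Benjamini-Hochberg adjusted p under 0.05. Among all tested genes, 1826 (9.41%) rose and 3175 (16.4%) fell in the null-labelled embryos against Dnmt3b+/+. This split depends on the scaling, with 2399 higher and 2679 lower under median-of-ratios scaling, 2236 and 2044 under quantile normalization, and 1356 and 3835 under TPM scaling. Embryo quality weights in the model gave 3345 higher and 5949 lower. With single embryos left out the counts ran from 808 to 2323 higher and from 1580 to 4536 lower. All 3 groups enter 1 model, and both mutant groups share the Dnmt3b+/+ controls.

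Several libraries stood apart from the whole-embryo label. The 6 hepatocyte genes summed to 259, 35.9 and 144 FPKM in the Dnmt3b+/+ embryos, 52.9, 108 and 53.2 FPKM in the null-labelled embryos and 190, 162 and 191 FPKM in Dnmt3bCI/CI, so that all null-labelled embryos lay below all Dnmt3bCI/CI embryos. Dnmt3b+/+ embryo 2 had 0.119 FPKM of Afp and 0.103 FPKM of Alb, where the other 8 embryos had 23.8 to 93.2 FPKM of Afp and 9.67 to 85.7 FPKM of Alb. Heart genes were nearly absent in 2 embryos, with 2.98 FPKM summed over 6 genes in Dnmt3b+/+ embryo 1 and 4.22 FPKM in Dnmt3bCI/CI embryo 3, against 25.1 to 110 FPKM in the other 7. As to the targeted gene, Dnmt3b was higher in the null-labelled libraries, with 2.45, 3.12 and 3.33 FPKM against 2.25, 1.62 and 2.04 FPKM in Dnmt3b+/+ (log2 fold change 0.57, limma adjusted p = 0.0248), which is why these embryos are named by their label. A sum over the whole gene does not check a deletion of part of it. The fit was also run without the 3 embryos lacking liver or heart transcripts (Dnmt3b+/+ 1 and 2 and Dnmt3bCI/CI 3), a choice made after seeing the data that leaves 1 Dnmt3b+/+ embryo, assumed to vary like the other groups. Over all tested genes 82 rose and 98 fell in the null-labelled embryos against Dnmt3b+/+ in that fit. No call of a member against Dnmt3b+/+ held there, nor did the higher level of Dnmt3b (0.51, adjusted p = 0.21). Of the 35 pathway genes called below, 32 lost their call in it, and the 3 that kept it were Hif3a, Aldoc and Lox. All 35 kept their direction. For 34, all but Angptl4, the log2 fold change stayed within 1.5 times of that with all embryos, while the standard errors were larger (median ratio 1.5). These genes were picked by their calls with all embryos, and both fits share the null-labelled embryos, so this likeness was partly fixed in advance. With so few genes passing in that fit, a lost call there says little about a single gene.

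**Figure D1:**
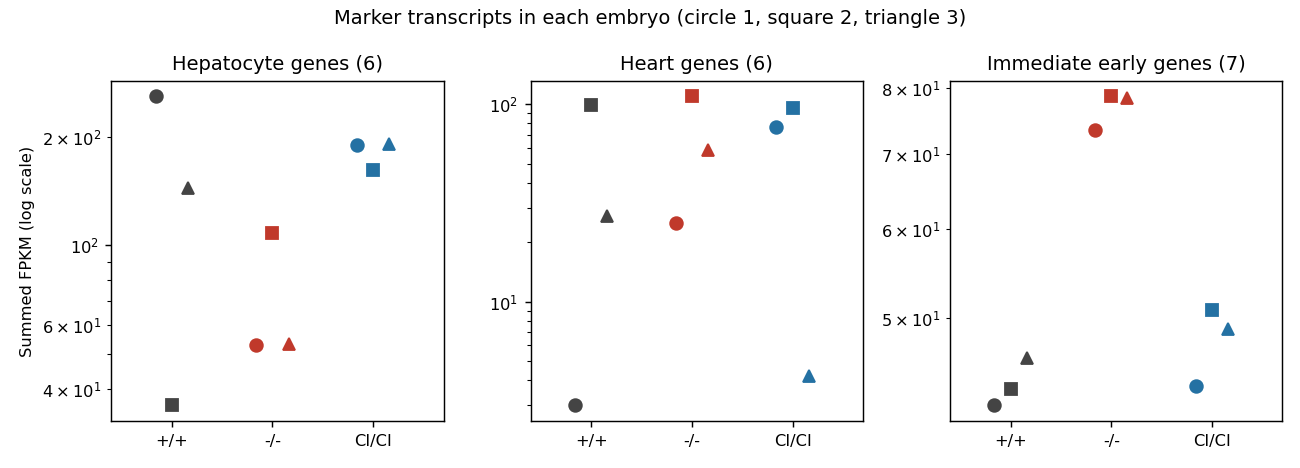
Summed FPKM of hepatocyte, heart and immediate early genes in each embryo, on a log axis, by genotype (symbols: embryo number). Dnmt3b+/+ embryo 2 is lowest for hepatocyte genes at 35.9 FPKM, Dnmt3b+/+ embryo 1 and Dnmt3bCI/CI embryo 3 are lowest for heart genes, and the 3 null-labelled embryos have the highest immediate early sums, from 73.4 to 78.7 FPKM.

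In the null-labelled embryos, the hypoxia-inducible genes moved in opposite directions. Adm and Bnip3 rose, Ndrg1 fell, and the other 7 did not pass the test against Dnmt3b+/+. Thus 2 of 10 rose and 1 of 10 fell, beside 9.41% and 16.4% of all tested genes. The median log2 fold change was 0.13 over the 10 members and -0.07 over all tested genes. In Dnmt3bCI/CI embryos 0 of 10 members passed the test against Dnmt3b+/+. With the further requirement of a 2-fold change in FPKM + 0.1, which 4.45% of tested genes met in either direction, 0 of 10 members were called between the null-labelled embryos and Dnmt3b+/+.

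**Figure D2:**
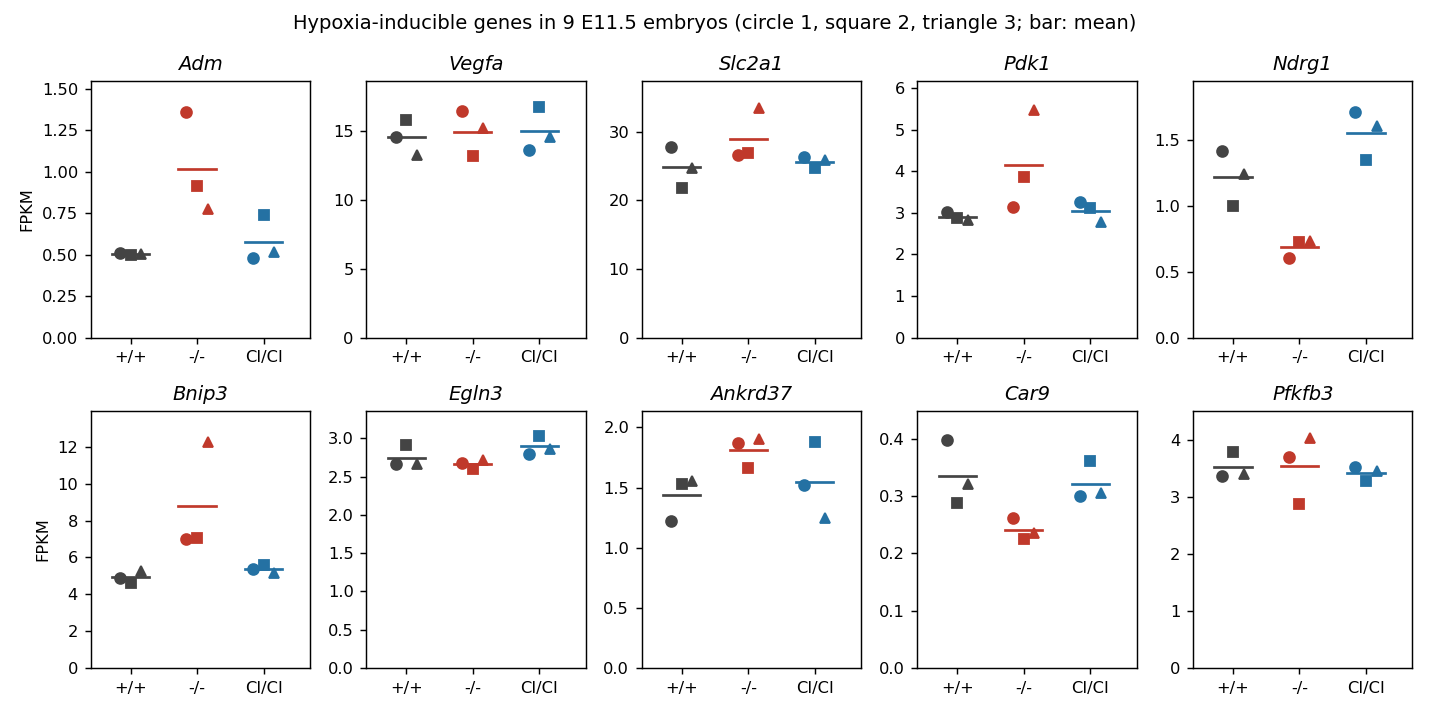
FPKM of the 10 members in each of 9 embryos by genotype, each axis starting at 0 (symbols: embryo number, bars: group means). The null-labelled embryos lie above all Dnmt3b+/+ embryos for Adm, Bnip3, Pdk1 and Ankrd37 and below them for Ndrg1 and Car9.

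Adm (chr7:110627661-110629820, plus strand) encodes adrenomedullin, a peptide that dilates vessels and is needed for the vessels and heart of the embryo. It had 0.512, 0.496 and 0.504 FPKM in Dnmt3b+/+ embryos, 1.36, 0.915 and 0.777 FPKM in the null-labelled embryos and 0.482, 0.742 and 0.514 FPKM in Dnmt3bCI/CI embryos. These values rest on few reads, 37, 40 and 32 in Dnmt3b+/+ libraries, 88, 63 and 51 in null-labelled and 35, 52 and 32 in Dnmt3bCI/CI. Every null-labelled embryo was above every other embryo, with embryo 1 highest and embryo 3 just above Dnmt3bCI/CI embryo 2. The mean was 1.02 ± 0.306 FPKM against 0.504 ± 0.00793 FPKM in Dnmt3b+/+ (SD, n = 3 each), a ratio of 2.02. The log2 fold change was 0.86 (SE 0.21, limma adjusted p = 0.0195). The call was lost without Dnmt3b+/+ embryo 3 (adjusted p = 0.0571), without null-labelled embryo 2 (adjusted p = 0.0514) and without the 3 embryos lacking liver or heart transcripts (log2 fold change 0.86, adjusted p = 0.245). With a pseudocount of 1 FPKM the log2 fold change was 0.41 (adjusted p = 0.0225).

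Bnip3 (chr7:138890836-138909519, minus strand) encodes a mitochondrial outer membrane protein that promotes mitophagy. Its values were 4.88, 4.60 and 5.27 FPKM in Dnmt3b+/+, 7.03, 7.06 and 12.3 FPKM in the null-labelled embryos and 5.40, 5.60 and 5.17 FPKM in Dnmt3bCI/CI. Again the 3 null-labelled embryos exceeded all 6 others, and here embryo 3 stood far above embryos 1 and 2. Bnip3 averaged 8.80 ± 3.03 FPKM against 4.92 ± 0.335 FPKM (SD, n = 3), or 0.78 higher on the log2 scale (SE 0.19, limma adjusted p = 0.0205). Without the high embryo 3 the log2 fold change was 0.51 (adjusted p = 0.00812), and the call was lost without Dnmt3b+/+ embryo 2 (adjusted p = 0.0575), with only the groups compared in the model (adjusted p = 0.0598) and without the 3 embryos lacking liver or heart transcripts (0.68, adjusted p = 0.302). The antisense gene Gm45507 shares 504 of the 2265 exon bases of Bnip3 and rose as well, with a log2 fold change of 0.76 (limma adjusted p = 0.0426, and 0.369 without the 3 embryos). Whether counting used the strand is not given in the sources used here, so reads of the pair cannot be told apart.

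Ndrg1 (chr15:66929318-66969640, minus strand) encodes a stress- and differentiation-linked cytoplasmic protein that is best known in Schwann cells and epithelia. It went the other way, with 1.42, 0.996 and 1.24 FPKM in Dnmt3b+/+, 0.605, 0.728 and 0.729 FPKM in the null-labelled embryos and 1.71, 1.34 and 1.60 FPKM in Dnmt3bCI/CI. All 3 null-labelled embryos were below all others, and they lay close together. The mean fell from 1.22 ± 0.211 to 0.687 ± 0.0716 FPKM (SD, n = 3), with a difference of -0.73 on the log2 scale (SE 0.15, limma adjusted p = 0.00999). This call was lost without the 3 embryos lacking liver or heart transcripts (-0.77, adjusted p = 0.129), and with a pseudocount of 1 FPKM the difference was -0.39 (adjusted p = 0.0132). The antisense gene Gm17035 shares 419 of the 6596 exon bases and fell too, by 1.01 on the log2 scale (limma adjusted p = 0.00294, and 0.0819 without the 3 embryos), with the same limit on strand.

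The opposite movement was visible within each embryo. Bnip3 was 3.45, 4.62 and 4.24 times the level of Ndrg1 per length in Dnmt3b+/+ embryos, 11.6, 9.70 and 16.9 times in null-labelled embryos and 3.15, 4.16 and 3.22 times in Dnmt3bCI/CI. For Adm over Ndrg1 the ratios were 0.361 to 0.498 in Dnmt3b+/+, 1.07 to 2.25 in the null-labelled embryos and 0.281 to 0.552 in Dnmt3bCI/CI. These pairs were formed from the members already called and are given as a description, with no test.

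Members of glucose metabolism did not pass the test. Pdk1 (chr2:71873224-71903858, plus strand), a kinase that keeps pyruvate out of the mitochondrial citric acid cycle, had 3.01, 2.87 and 2.82 FPKM in Dnmt3b+/+ and 3.15, 3.86 and 5.47 FPKM in the null-labelled embryos. These did not overlap, but the spread among the latter was wide, and the log2 fold change of 0.47 had an interval from 0.08 to 0.86 and an adjusted p of 0.0741 (limma). Pdk1 was called without null-labelled embryo 1 (0.65, adjusted p = 0.0102) and with embryo quality weights in the model (0.55, adjusted p = 0.00602), and without embryo 3 its difference was 0.26 (adjusted p = 0.147). Slc2a1 (chr4:119108711-119137983, plus strand), the glucose transporter GLUT1 and the member with the highest level, had 27.8, 21.8 and 24.7 FPKM against 26.6, 26.8 and 33.4 FPKM, which overlapped (log2 fold change 0.22, 95% interval -0.03 to 0.47, limma adjusted p = 0.165). Its difference was 0.12 without null-labelled embryo 3 and 0.13 without Dnmt3b+/+ embryo 2. Pfkfb3 (chr2:11471433-11554077, minus strand), which makes the activator of phosphofructokinase, had 3.37, 3.78 and 3.41 FPKM against 3.71, 2.87 and 4.04 FPKM. Its log2 fold change of -0.00 (95% interval -0.27 to 0.27, limma adjusted p = 0.982) was below the spread between embryos.

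Car9 (chr4:43506966-43513729, plus strand), a cell-surface carbonic anhydrase that helps export acid, was the member with the lowest level. It had 0.399, 0.288 and 0.321 FPKM in Dnmt3b+/+, 0.261, 0.225 and 0.235 FPKM in the null-labelled embryos and 0.300, 0.361 and 0.305 FPKM in Dnmt3bCI/CI. The null-labelled embryos were below all others, from 22 to 24 reads against 27 to 41 reads in the other libraries, and the log2 fold change of -0.35 (95% interval -0.65 to -0.04) had an adjusted p of 0.0869 (limma). With embryo quality weights Car9 was called (-0.37, adjusted p = 0.0218), while its difference was -0.14 with quantile normalization (adjusted p = 0.442) and -0.11 with a pseudocount of 1 FPKM (adjusted p = 0.0846). The antisense gene Gm12454 shares 214 of the 2304 exon bases of Car9 (log2 fold change -0.67, limma adjusted p = 0.101). Gm12868 shares 105 of the 3506 of Slc2a1 (0.16, adjusted p = 0.191). The limit on strand given for Bnip3 holds for both. Ankrd37 (chr8:45996902-46005707, minus strand), a small ankyrin-repeat protein, had 1.22, 1.53 and 1.56 FPKM in Dnmt3b+/+ and 1.87, 1.67 and 1.91 FPKM in the null-labelled embryos, without overlap. Its log2 fold change of 0.32 (95% interval -0.02 to 0.67) missed the threshold (limma adjusted p = 0.146), and was 0.49 with quantile normalization (adjusted p = 0.055), 0.20 with embryo quality weights (adjusted p = 0.267), 0.21 with a pseudocount of 1 FPKM (adjusted p = 0.143) and 0.21 without the 3 embryos lacking liver or heart transcripts (adjusted p = 0.519). Of its 1539 exon bases, 349 lie in exons of Lrp2bp on the other strand (log2 fold change of Lrp2bp 0.285, limma adjusted p = 0.11).

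Vegfa and Egln3 overlapped between the null-labelled and Dnmt3b+/+ embryos. Vegfa (chr17:46016993-46032369, minus strand), the main growth factor of vessels, had 14.6, 15.8 and 13.3 FPKM in Dnmt3b+/+, 16.5, 13.2 and 15.2 FPKM in the null-labelled embryos and 13.7, 16.8 and 14.6 FPKM in Dnmt3bCI/CI. Its interval against Dnmt3b+/+ ran from -0.21 to 0.28 on the log2 scale (limma adjusted p = 0.825). Egln3 (chr12:54178981-54203860, minus strand), the oxygen sensor that HIF itself induces, had 2.67, 2.91 and 2.66 FPKM against 2.67, 2.60 and 2.71 FPKM, with an interval from -0.20 to 0.11 (limma adjusted p = 0.674). Changes within these bounds were not detectable with 3 embryos per group.

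Counted without a model, the null-labelled embryos and Dnmt3b+/+ did not overlap for 6 of 10 members, 4 higher and 2 lower, beside 38.9% of all tested genes. The null-labelled embryos were not alike among themselves. Embryo 3 had the highest level of Slc2a1, Pdk1, Ndrg1, Bnip3, Egln3, Ankrd37 and Pfkfb3, while embryo 1 had the highest Adm, Vegfa and Car9. Their highest value was 1.75 times the lowest for Adm, 1.75 times for Bnip3 and 1.74 times for Pdk1, and 1.05 times for Egln3. By level in Dnmt3b+/+ embryos, the order per length was Slc2a1 (24.8 FPKM), Vegfa (14.6 FPKM), Bnip3, Pfkfb3, Pdk1, Egln3, Ankrd37, Ndrg1, Adm and Car9 (0.336 FPKM). Neighbours in that order did not overlap between embryos, except Pdk1 with Egln3 and Ankrd37 with Ndrg1.

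**Figure D3:**
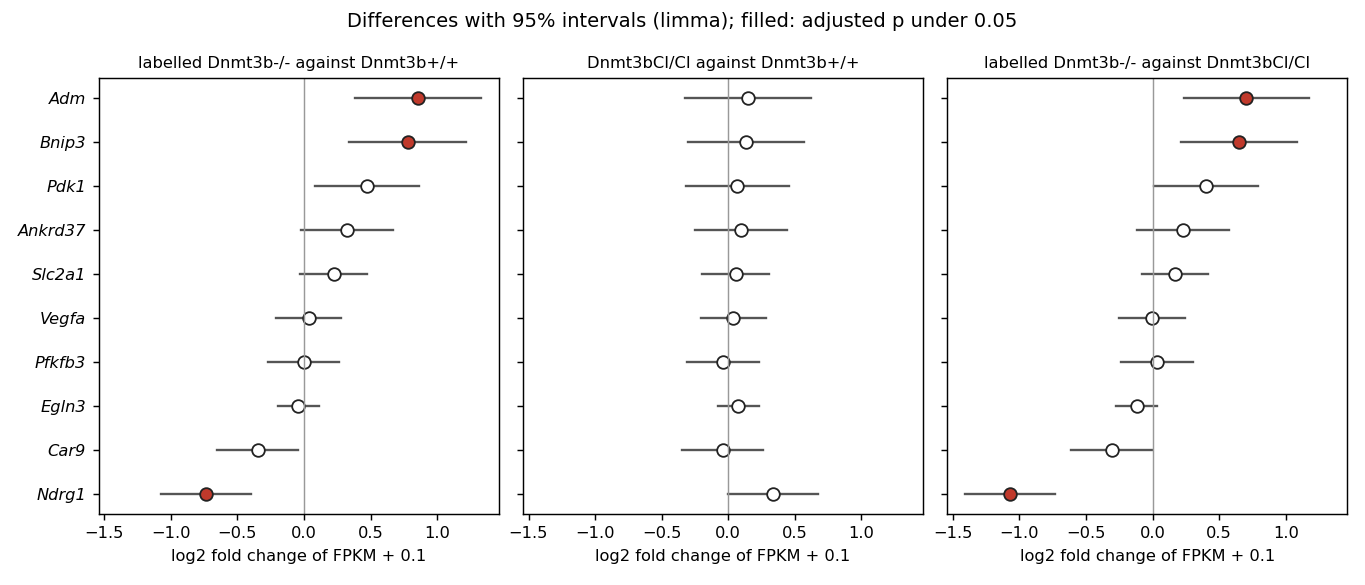
Log2 fold changes of FPKM + 0.1 with 95% intervals from limma for the 10 members in the 3 comparisons (filled: adjusted p under 0.05). Adm and Bnip3 lie above 0 and Ndrg1 below 0 in both comparisons of the null-labelled embryos, and no member is filled in Dnmt3bCI/CI against Dnmt3b+/+.

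The Dnmt3bCI/CI embryos, whose Dnmt3b protein has an altered catalytic site, were compared with the same controls. Against Dnmt3b+/+, 0 of 10 members passed the limma test, beside 0.129% of tested genes that rose and 0.0155% that fell. An unadjusted p under 0.05 was reached by 0 of 10 members and by 1019 of 19397 tested genes. All 10 members overlapped between these groups, where 13.2% of tested genes did not. The median log2 fold change was 0.07 over members and 0.02 over all tested genes. The intervals ran from -0.32 to 0.62 for Adm and from -0.30 to 0.57 for Bnip3, so smaller changes in Dnmt3bCI/CI embryos were not detectable with 3 embryos. Ndrg1 had the lowest unadjusted p, with a log2 fold change of 0.33 (95% interval -0.00 to 0.67, limma adjusted p = 0.949), which was 0.21 without Dnmt3b+/+ embryo 2 (adjusted p = 0.918) and 0.21 with a pseudocount of 1 FPKM (adjusted p = 0.89).

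A direct test between the mutants, null-labelled against Dnmt3bCI/CI, gave 2 members higher and 1 lower, beside 9.7% and 18.2% of tested genes. They were Adm (log2 fold change 0.70, SE 0.21, limma adjusted p = 0.0359), Bnip3 (0.65, SE 0.19, adjusted p = 0.0367) and Ndrg1 (-1.07, SE 0.15, adjusted p = 0.00212). Over all tested genes this split too depended on the scaling, with 2692 higher and 2842 lower under median-of-ratios scaling. The counts were 2840 and 2281 under quantile normalization, 1630 and 3768 under TPM scaling, and 3199 and 5821 with embryo quality weights. Without the filter on low values Adm and Bnip3 missed the threshold (adjusted p = 0.0822 and 0.0774), as they did without the 3 embryos lacking liver or heart transcripts (adjusted p = 0.177 and 0.167). Bnip3 differed by 0.38 without null-labelled embryo 3 (adjusted p = 0.0174), and its call was lost without Dnmt3b+/+ embryo 3 (adjusted p = 0.0551) and without any single Dnmt3bCI/CI embryo (adjusted p = 0.0787 to 0.101). The call of Adm was lost without Dnmt3b+/+ embryo 3 (0.0565), null-labelled embryo 1 (0.0565) or 2 (0.0727) and Dnmt3bCI/CI embryo 1 (0.116) or 3 (0.108), the values being adjusted p. Pdk1 (log2 fold change 0.40, limma adjusted p = 0.109) was called in this comparison without null-labelled embryo 1 (0.58, adjusted p = 0.0145) and with embryo quality weights (0.46, adjusted p = 0.0187), while its difference was 0.19 without null-labelled embryo 3 (adjusted p = 0.263). Car9 was called with those weights (-0.34, adjusted p = 0.0392), and its difference was -0.04 with quantile normalization (adjusted p = 0.839). The call of Ndrg1 held without the 3 embryos lacking liver or heart transcripts (-1.04, adjusted p = 0.0258). The groups did not overlap for 6 of 10 members, beside 46.2% of tested genes, with Adm, Bnip3 and Slc2a1 higher and Ndrg1, Egln3 and Car9 lower.

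The pathway lists below compare the null-labelled embryos with Dnmt3b+/+, and their counts are to be read beside the 9.41% of all tested genes that rose and the 16.4% that fell. Of the machinery that controls these genes, 12 HIF subunits, oxygen sensors and cofactors, 0 rose and 4 fell, with a median log2 fold change of -0.10. Hif1a had 11.6, 11.6 and 11.3 FPKM in Dnmt3b+/+ and 11.3, 11.9 and 12.4 FPKM in the null-labelled embryos (log2 fold change 0.05, limma adjusted p = 0.56), and Epas1 had 2.66 to 3.87 FPKM against 3.04 to 3.79 FPKM (0.06, adjusted p = 0.792). HIF alpha subunits are controlled chiefly at the protein, which was not measured. Hif3a, whose products can oppose the other alpha subunits, fell from 4.82 ± 0.711 to 2.63 ± 0.191 FPKM (-0.84, adjusted p = 0.00192). Crebbp (-0.33, adjusted p = 0.00254) and Ep300 (-0.16, adjusted p = 0.0476), coactivators of HIF and of many other factors, fell slightly, as did Arnt (-0.23, adjusted p = 0.0306). The call of Arnt was lost in 10 of 21 alternatives and that of Ep300 in 15 of 21, among them median-of-ratios scaling (adjusted p = 0.0858 and 0.192). Without the 3 embryos the log2 fold changes were -1.01 for Hif3a (adjusted p = 0.0403), -0.31 for Crebbp (0.121), -0.26 for Arnt (0.198) and -0.11 for Ep300 (0.493).

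The partners of the secreted members were nearly all below the threshold. Of 14 ligands and receptors of the adrenomedullin and VEGF systems, 0 rose and 1 fell, with a median of -0.09. The gene that fell was Nrp1, a co-receptor of VEGF, with 4.36 to 4.44 FPKM in Dnmt3b+/+ against 3.30 to 3.77 FPKM (-0.28, limma adjusted p = 0.0414). It lost its call in 12 of 21 alternatives, among them quantile normalization (adjusted p = 0.136), leaving out null-labelled embryo 3 (adjusted p = 0.129) and leaving out the 3 embryos lacking liver or heart transcripts (-0.27, adjusted p = 0.268).

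Glycolysis was the list in which most genes rose. Of 18 genes of glucose entry, glycolysis and lactate export, 11 rose and 2 fell, and the median log2 fold change was 0.59 against -0.07 over all tested genes. Slc16a3, the lactate exporter MCT4, rose from 4.76 ± 1.02 to 10.9 ± 2.05 FPKM (SD, n = 3), or by 1.18 on the log2 scale (limma adjusted p = 0.00317). Ldha (0.82), Gapdh (0.77), Eno1 (0.74), Pkm (0.66) and Pgam1 (0.63), enzymes of the lower pathway and of lactate formation, rose with adjusted p from 0.00109 to 0.00408, and in each the null-labelled embryos lay above all Dnmt3b+/+ embryos. The other 5 that rose, named after their values were seen, were Pgk1, Aldoa, Hk2, Pfkl and Gpi1. Aldoc, the aldolase of brain, fell from 2.29, 3.98 and 2.77 FPKM to 0.630, 0.598 and 0.657 FPKM (-2.06, adjusted p = 0.000543), and Hk1 fell by 0.25 on the log2 scale (adjusted p = 0.0413), a call lost in 16 of 21 alternatives. Aldoa was 16.1 to 21.9 times Aldoc in Dnmt3b+/+ embryos, 119 to 155 times in null-labelled embryos and 20.7 to 30.2 times in Dnmt3bCI/CI, a pair formed after its values were seen. In Dnmt3bCI/CI embryos 0 of 18 passed the limma test, and 1 of 18 had an unadjusted p under 0.05, beside 1019 of 19397 tested genes. Without the 3 embryos lacking liver or heart transcripts 0 of 18 rose, with log2 fold changes of 1.19 for Slc16a3 (adjusted p = 0.0735) and 0.90 for Ldha (adjusted p = 0.123), and 1 fell, Aldoc (-1.98, adjusted p = 0.00952).

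**Figure D4:**
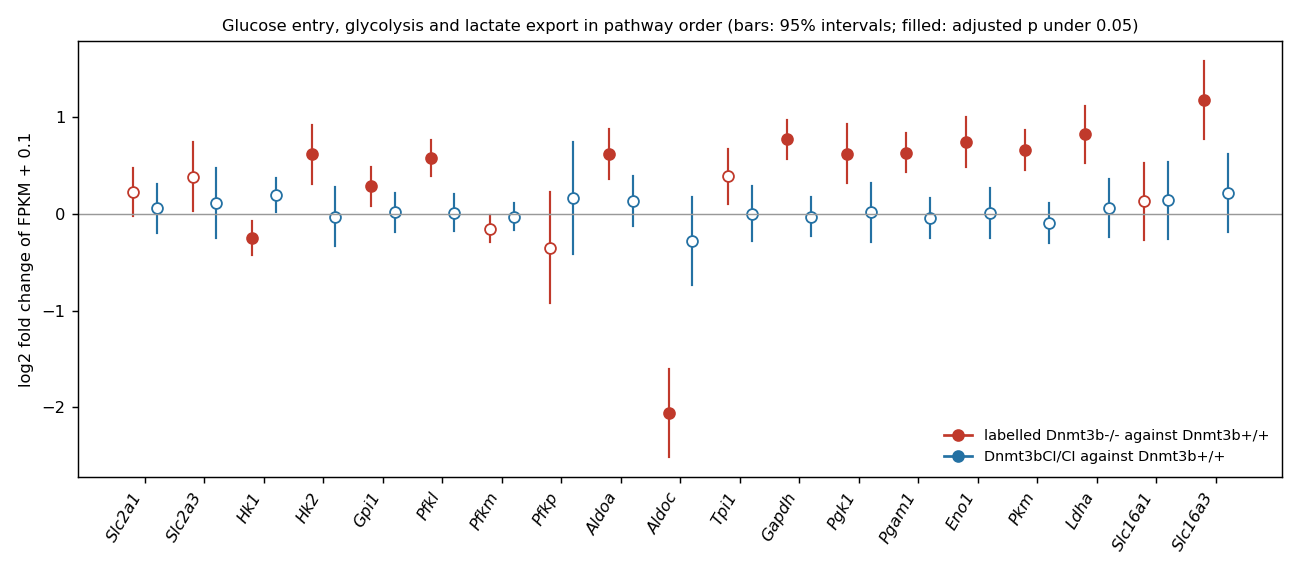
Log2 fold changes of FPKM + 0.1 with 95% intervals for Slc2a1 and the 18 genes of the list in the order of the pathway, for both mutant groups against Dnmt3b+/+ (filled: adjusted p under 0.05). In the null-labelled embryos 11 of 18 listed genes are filled above 0 and Aldoc lies at -2.06, while the Dnmt3bCI/CI points stay unfilled.

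Relatives of the members were split. Of 13 paralogs, 2 rose and 3 fell, with a median of -0.26. Ndrg2 fell with Ndrg1, from 6.21, 10.3 and 7.22 FPKM to 2.25, 3.18 and 3.35 FPKM (-1.39, limma adjusted p = 0.00255). Pdk2, the kinase related to Pdk1, fell from 4.18 ± 0.374 to 2.43 ± 0.238 FPKM (-0.76, adjusted p = 0.00317), and Pfkfb2 fell by 0.37 on the log2 scale (adjusted p = 0.0144). The carbonic anhydrase Car14 (0.77, adjusted p = 0.0345) and Pfkfb1 (0.61, adjusted p = 0.0474) rose, calls that were lost in 12 of 21 and 14 of 20 alternatives. Without the 3 embryos lacking liver or heart transcripts 0 of 13 paralogs passed, with log2 fold changes of -1.29 for Ndrg2 (adjusted p = 0.0731), -0.84 for Pdk2 (0.0798), -0.40 for Pfkfb2 (0.2), 0.74 for Car14 (0.314) and 0.57 for Pfkfb1 (0.308). Bnip3l, which shares the mitophagy role of Bnip3, had 12.6 to 13.5 FPKM in Dnmt3b+/+ and 12.3 to 15.0 FPKM in the null-labelled embryos (0.08, adjusted p = 0.464).

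Among 32 further HIF target genes, 5 rose and 7 fell, with a median of -0.00. Those that rose were Fam162a (0.82, limma adjusted p = 0.00101), the mitochondrial adenylate kinase Ak4 (0.75, adjusted p = 0.00951), the mitochondrial protein Higd1a (0.49, adjusted p = 0.000821), the lipase inhibitor Angptl4 (0.46, adjusted p = 0.0415) and the endoplasmic reticulum oxidase Ero1l (0.37, adjusted p = 0.0498). The call of Angptl4 was lost in 11 of 21 alternatives and that of Ero1l in 16 of 21. Lox, which cross-links collagen, fell from 8.27, 11.4 and 10.6 FPKM to 3.29, 2.20 and 2.42 FPKM (-1.91, adjusted p = 0.000389). Also lower were Tmem45a (-0.77), the glycogen regulator Ppp1r3c (-0.60), the lipoprotein receptor Vldlr (-0.59), the growth factor binding protein Igfbp3 (-0.59) and the transcription factor Bhlhe40 (-0.55), with adjusted p from 0.0127 to 0.0334. Calls were lost in 11 of 21 alternatives for Ppp1r3c, in 8 of 21 for Igfbp3, in 5 of 21 each for Tmem45a and Bhlhe40 and in 2 of 21 for Vldlr. The seventh, named after its values were seen, was the collagen-modifying enzyme Plod1 (-0.35). Without the 3 embryos lacking liver or heart transcripts 0 of 32 rose and 1 fell, Lox (-1.99, adjusted p = 0.0418), with log2 fold changes of 0.89 for Fam162a (adjusted p = 0.0757), 0.50 for Higd1a (0.0777), 0.78 for Ak4 (0.162) and 0.26 for Angptl4 (0.498). Over the 5 pathway lists, 18 of 89 genes (20.2%) rose and 17 (19.1%) fell, beside 9.41% and 16.4% of all tested genes.

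**Figure D5:**
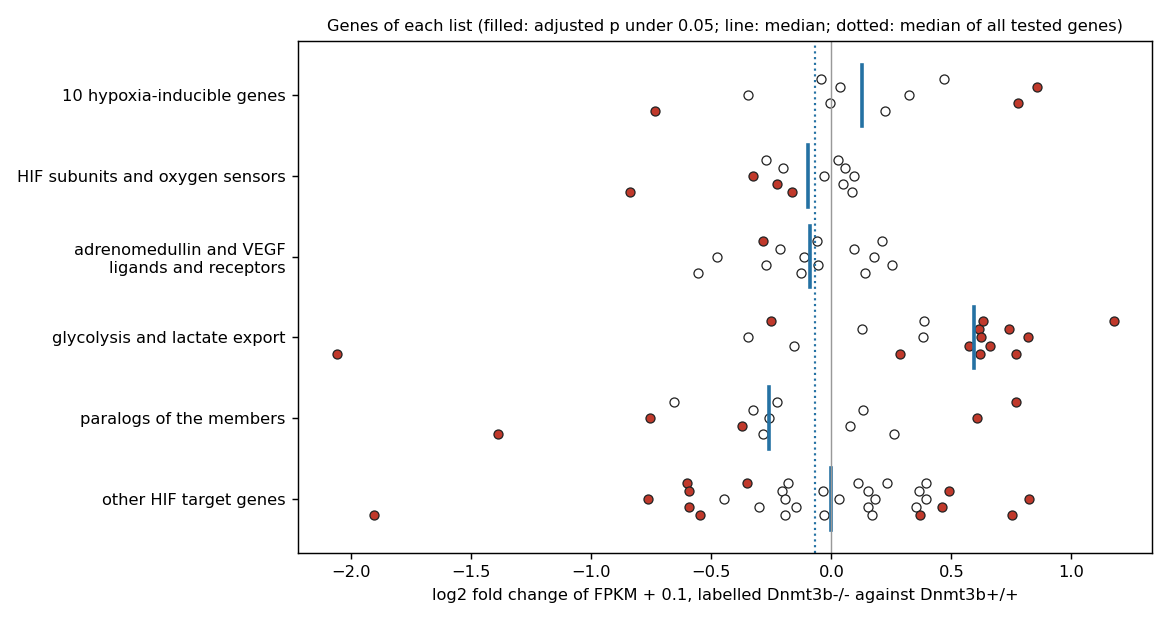
Log2 fold changes of FPKM + 0.1 in the null-labelled embryos against Dnmt3b+/+ for the members and 5 pathway lists (1 point per gene, filled: adjusted p under 0.05, line: median of the list, dotted: median of all tested genes at -0.07). The glycolysis list is centred at 0.59 with Aldoc far to the left, and the other lists hold filled points on both sides or below 0.

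Other transcripts moved with the same embryos, and their part in the differences above was not tested. Cartilage markers fell in 6 of 6, with sums from 140 to 210 FPKM in Dnmt3b+/+, 79.5 to 126 FPKM in the null-labelled embryos and 201 to 213 FPKM in Dnmt3bCI/CI. Skeletal muscle markers fell in 4 of 6 (107 to 208, 81.7 to 105 and 190 to 233 FPKM) and macrophage markers in 4 of 6 (10.3 to 11.8, 6.97 to 8.75 and 12.1 to 13.0 FPKM). Of 12 erythroid genes the primitive globins Hba-x and Hbb-bh1 rose. The sums over all 12 erythroid genes were 2302 to 2943, 2247 to 7008 and 2136 to 2897 FPKM. Immediate early genes, which respond to handling and stress, rose in 7 of 8 rows, Junb having 2 (41.8 to 46.1, 73.4 to 78.7 and 43.5 to 50.8 FPKM). In heart and neuron 0 of 6 passed each way, in hepatocyte genes 1 of 6 (Ttr) fell and in endothelium 1 of 11 (Erg) fell. Without the 3 embryos lacking liver or heart transcripts, the calls of these marker lists were Matn1 (cartilage) and Erg, which fell, and Fos (immediate early), which rose. Of 9 markers of placenta and decidua 8 stayed under 4 reads in every library and Syna fell, and the 7 mitochondrial transcripts, at the floor in all libraries, carry no information on RNA quality. In whole embryos, fewer cells of a type and less RNA per cell cannot be told apart.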

How the data were processed

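Total RNA of 9 embryos, 3 per genotype, was sequenced as paired-end reads. The authors trimmed the reads, aligned them with STAR to mm10, quantified genes in SeqMonk and deposited 1 table of FPKM values per gene and embryo. Strandedness and annotation release are not given in the sources used here. A gene without reads holds a floor worth 0.9 reads. Reads were worked back from FPKM, GENCODE M21 exon lengths and library totals, and 95.2% of low values came out whole within 0.02 reads. They served for depth only, and intervals cover the spread between embryos, with depths of 38451729 to 49808777 reads.

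Of 34245 rows, 1 without a name was left out. The 19397 genes that reached 0.1 FPKM in 3 or more embryos were compared by limma 3.58.1 (R 4.3.3) on log2(FPKM + 0.1), using a trend on the mean level, 3 groups in 1 model and Benjamini-Hochberg adjustment over all tested genes. The pseudocount understates changes of low genes such as Adm and Car9, and 1 FPKM was tried beside it. In simulated data for the comparison of Dnmt3b-/- with Dnmt3b+/+ on 19093 genes, 91% of 200 genes with a planted change were called. The planted change was larger than the log2 fold change of any member, and each gene had the same spread in every group. That share therefore does not tell how often changes of the members' size are called. The embryos of a genotype were treated as independent, and their litters are not given in the sources used here. The numbers in the labels did not pair embryos, with a mean correlation of deviations of -0.21 between same-numbered Dnmt3b-/- and Dnmt3b+/+ embryos. All members are named, and from each pathway list the genes called between embryos labelled Dnmt3b-/- and Dnmt3b+/+, up to 6 per direction, largest change first, with Hif1a, Epas1 and Arnt. Other pathway genes that are named, such as Bnip3l, stand outside this rule. Members and lists were chosen with earlier results of these data known. Promoters are from RefSeq. Other software was python 3.11.15 with numpy 2.4.6, pandas 2.3.3 and matplotlib 3.10.9. Methylation data of the series were not analysed here.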

Additional observations from a re-analysis of the deposited data

How the results depend on the processing

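With 3 embryos per group most member calls lay near the threshold, Adm and Car9 rested on under 100 reads per library, and libraries differed in organ content. Tried were pseudocounts of 0.01 and 1 FPKM, filters of 0 and 1 FPKM, 3 scalings, a model of only the 2 groups compared, no trend, embryo quality weights, the replicate block and each embryo left out, with the 3 embryos lacking liver or heart transcripts left out as an addition made after seeing the data. Unless a value shows it, the cause of a change was not tested. Adm, Bnip3 and Ndrg1 kept their direction against both other genotypes wherever they were tested, and 0 members were called in Dnmt3bCI/CI against Dnmt3b+/+ in any.

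Against Dnmt3b+/+, the 2 members higher became 1 with the filter of 1 FPKM, which removes Adm, and 1 with only the 2 groups compared. They became 3 with embryo quality weights, which added Pdk1, and 1 to 3 with each embryo left out. Those weights raised the calls over all tested genes as well, to 3345 higher and 5949 lower. The 1 member lower became 2 with embryo quality weights, which added Car9, and it was 1 with every single embryo left out. Both counts were 0 without the 3 embryos lacking liver or heart transcripts and 0 when a 2-fold change was also required. Against Dnmt3bCI/CI, the 2 members higher became 0 without a filter, 1 with the filter of 1 FPKM, 1 with TPM scaling, 0 with only the 2 groups compared, 3 with embryo quality weights, which added Pdk1, 0 without the 3 embryos and 0 with a 2-fold change, and 0 to 2 with each embryo left out. There the 1 member lower became 2 with embryo quality weights, which added Car9. Over all tested genes those weights gave 3199 higher and 5821 lower in this comparison, where the fit without them gave 1882 and 3525.

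Glycolysis genes higher against Dnmt3b+/+ fell from 11 to 0 without the 3 embryos and to 1 with a 2-fold change. The 2 that were lower became 1 with no filter, 1 with median-of-ratios scaling, 1 with quantile normalization, 1 with only the 2 groups compared, 1 with no trend, 1 without the 3 embryos and 1 with a 2-fold change, Aldoc remaining, and 1 to 2 with each embryo left out. Over the 5 pathway lists the 18 genes higher became 0 without the 3 embryos and 1 with a 2-fold change. The 17 lower became 9 with quantile normalization, 8 with only the 2 groups compared, 29 with embryo quality weights, 3 without the 3 embryos and 3 with a 2-fold change, and 8 to 20 with each embryo left out.

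The replicate block, which the labels' numbers do not justify as a pairing (mean correlation -0.21 for same-numbered Dnmt3b+/+ and null-labelled embryos against 0.114 for others), left 2 members higher and 1 lower against Dnmt3b+/+. With this block 0 members were higher against Dnmt3bCI/CI, 1 glycolysis gene was lower and 10 pathway genes were lower.

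Called log2 fold changes that moved by over 1.5 times did so chiefly with a pseudocount of 1 FPKM, where each kept its call. There Adm was 0.414 and Ndrg1 -0.391 against Dnmt3b+/+, they were 0.347 and -0.597 against Dnmt3bCI/CI, and Aldoc was -1.279, Pfkfb1 0.23, Pfkfb2 -0.239, Tmem45a -0.399, Ppp1r3c -0.378, Vldlr -0.382 and Bhlhe40 -0.289. Calls were lost with smaller values for Nrp1 (-0.188), Pfkfb2 (-0.189) and Bhlhe40 (-0.337) with quantile normalization and for Hk1 (-0.137) with quality weights.

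Signs turned only for differences near 0, none of which passed the test in either fit. Against Dnmt3b+/+ in null-labelled embryos, Vegfa was -0.018 with TPM scaling and from -0.036 to 0.122 with an embryo left out, Egln3 was 0.006 with median-of-ratios scaling and 0.073 with quantile normalization, and Pfkfb3 was 0.045 and 0.104 with those scalings, 0.04 without the 3 embryos and from -0.104 to 0.135 with an embryo left out. Hif1a was -0.007 with TPM scaling, and Epas1 was -0.006 with quality weights, -0.025 without the 3 embryos and from -0.095 to 0.166 with an embryo left out. For null-labelled against Dnmt3bCI/CI, Vegfa was 0.065 with median-of-ratios scaling, 0.001 with quantile normalization and from -0.075 to 0.083 with an embryo left out, Egln3 was 0.02 with quantile normalization, and Pfkfb3 was -0.07 with quality weights and from -0.064 to 0.174 with an embryo left out. In Dnmt3bCI/CI against Dnmt3b+/+, Ankrd37 was -0.00022 with quality weights and from -0.047 to 0.228 with an embryo left out, and Car9 was 0.028 without the 3 embryos and from -0.122 to 0.060 with an embryo left out. With an embryo left out Adm ranged from -0.015 to 0.252, Vegfa from -0.044 to 0.104, Slc2a1 from -0.034 to 0.142 and Pfkfb3 from -0.069 to 0.011 in that comparison.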
